A study of Homo sapiens with 6 samples.

Results

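MicroRNA host genes are long non-coding genes named for a microRNA that lies within or next to them. The table of counts held 82 of them among its 35036 genes, taken as every gene whose symbol starts with MIR and ends in HG, apart from MIR4435-2HG and MIR34AHG. The rule used symbols alone and no measured value, though earlier results of these data were known when it was chosen. RNA came from U-2OS, a human osteosarcoma cell line, in 6 libraries. The 3 SiCtrl libraries are the transfected controls, and in the 3 SiSFPQ libraries the target was SFPQ, an RNA-binding protein of nuclear paraspeckles. The cells of all 6 libraries were treated with actinomycin D, which blocks transcription, so both groups carry that treatment and no untreated library was analysed here. The sources used here give no dose or time for actinomycin D, and replicate libraries are not said to come from separate cultures. The p-values therefore measure only the spread between these libraries, which may be technical.

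A microRNA is made in steps. RNA polymerase II transcribes a long primary transcript, the nuclear enzyme Drosha cuts a hairpin out of it, Dicer trims the hairpin, and the mature strand guides Argonaute to messenger RNAs, mainly through its seed, bases 2 to 8. The host gene is the part of that primary transcript that is spliced and polyadenylated. Hairpins in introns can be released while the spliced RNA survives, whereas cutting a hairpin out of an exon breaks the host RNA itself. The counts are of host RNA captured by its poly(A) tail. Mature microRNAs are too short to be seen in such libraries and were not measured.

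The microRNAs below are those of the hosts on which the results turn, grouped by seed. Sequences and microRNA positions are from RefSeq on GRCh38.p14, written 5′ to 3′, with the seed in capitals. The sources used here do not name the table's own build. Of the 82 identifiers, 80 were in GENCODE 29 on GRCh38 and 79 of these overlapped the position there, so positions are read as GRCh38. A RefSeq microRNA lay on the same strand within the listed span of 71 of the 82 hosts.

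Some seeds recurred across hosts. The seed GAGGUAG, that of the let-7 family, which restrains growth-promoting transcripts, was carried by microRNAs of 7 hosts, more than any other seed. They included MIRLET7BHG, MIRLET7A1HG, MIR100HG and, under a number rather than a let-7 name, MIR4458HG.
let-7a-5p (MIRLET7BHG, MIRLET7A1HG, MIR100HG): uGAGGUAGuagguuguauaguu
let-7b-5p (MIRLET7BHG): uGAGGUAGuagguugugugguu
let-7d-5p (MIRLET7A1HG): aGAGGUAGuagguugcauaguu
miR-4458 (MIR4458HG): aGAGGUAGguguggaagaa

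The next set is of hosts that changed most. The miR-29 family acts on collagen and other matrix transcripts, and its seed AGCACCA stood in both microRNAs of MIR29B2CHG. Both microRNAs of MIR181A1HG, of a family known in lymphocyte development, shared the seed ACAUUCA.
miR-29b-3p (MIR29B2CHG): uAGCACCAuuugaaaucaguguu
miR-29c-3p (MIR29B2CHG): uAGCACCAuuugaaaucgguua
miR-22-3p (MIR22HG): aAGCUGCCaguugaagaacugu
miR-181a-5p (MIR181A1HG): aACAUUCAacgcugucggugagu
miR-181b-5p (MIR181A1HG): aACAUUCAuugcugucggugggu
miR-4453 (MIR4453HG): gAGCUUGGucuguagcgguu

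The last set is of hosts that did not change or lay near the limit of the test. The seed AGCAGCA is that of the miR-15 and miR-16 family, which restrains the cell cycle.
miR-195-5p (MIR497HG): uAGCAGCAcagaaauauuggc
miR-497-5p (MIR497HG): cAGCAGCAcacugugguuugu
miR-210-3p (MIR210HG): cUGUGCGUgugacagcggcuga

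Most host genes gave few counts. Of the 82, 19 had no count in any library, 34 had too few to test, with 1 to 55 counts over the 6 libraries (median 6.5), and 29 were tested, with 51 to 3866. The table's totals were 1298658 to 1599566 counts per library, and the 82 hosts together held 0.226% to 0.231% of them in SiCtrl and 0.233% to 0.239% in SiSFPQ. The 8 hosts with the most counts held 74.6% of the hosts' counts, and the 29 tested held 97.5%. The totals are those of this table, in which 50 genes are protein-coding in GENCODE 29, and not of whole libraries. SFPQ itself, and 7 coding markers of osteosarcoma and other cells, were not analysed here, so the groups and the cell line rest on the labels.

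**Figure D1:**
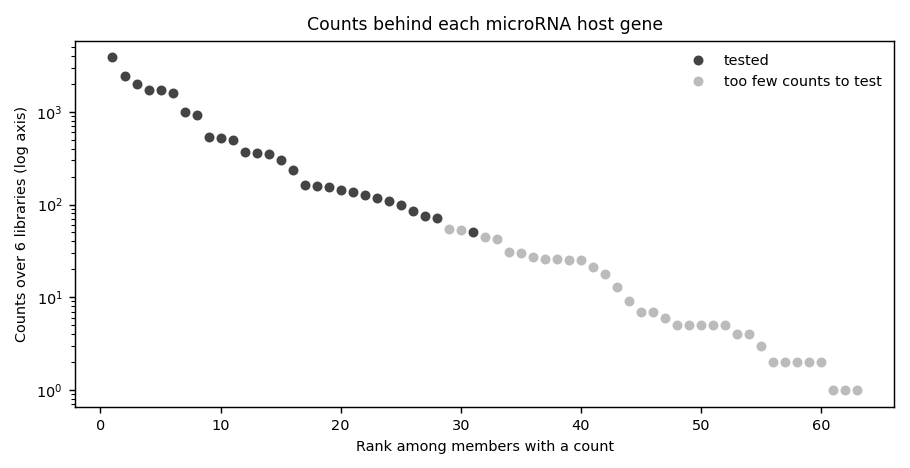
Counts summed over the 6 libraries (vertical log axis) for the 63 hosts with any count, in order of rank (horizontal axis). Dark points are the 29 tested hosts and light points the 34 with too few counts, which lie at 55 or below.

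Among the 29 tested hosts, 11 rose and 7 fell in SiSFPQ and 11 were not called. A call is an adjusted p under 0.05 in edgeR's quasi-likelihood test, with Benjamini-Hochberg adjustment over all 6325 tested genes of the table. The 18 called are 62.1% of those tested, beside 48.4% of all tested genes, where 24.5% were called higher and 24.0% lower. The SiCtrl and SiSFPQ values did not overlap for 19 of the 29 hosts, or 65.5%, beside 54.0% of all tested genes. A log2 fold change of at least 1 in size was reached by 4 called hosts of the 29, beside 12.2% of all tested genes. The median log2 fold change was 0.22 in the 29 hosts and 0.01 in all tested genes. Without SiCtrl replicate 3 the filter kept 31 hosts, and their median was -0.02, so the sets of hosts differ. Leaving out any other library gave 0.07 to 0.24. The hosts' median was 0.01 with DESeq2 (33 hosts), 0.03 with a stricter filter (44) and 0.05 with no filter (63). With all libraries and the same 29 hosts, it ran from 0.20 with limma-voom to 0.29 with plain library totals. DESeq2 called fewer hosts, 7 higher and 4 lower, and without SiSFPQ replicate 2 edgeR called 4 lower. In bulk RNA, a change in how many cells hold an RNA and a change in RNA per cell cannot be told apart.

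**Figure D2:**
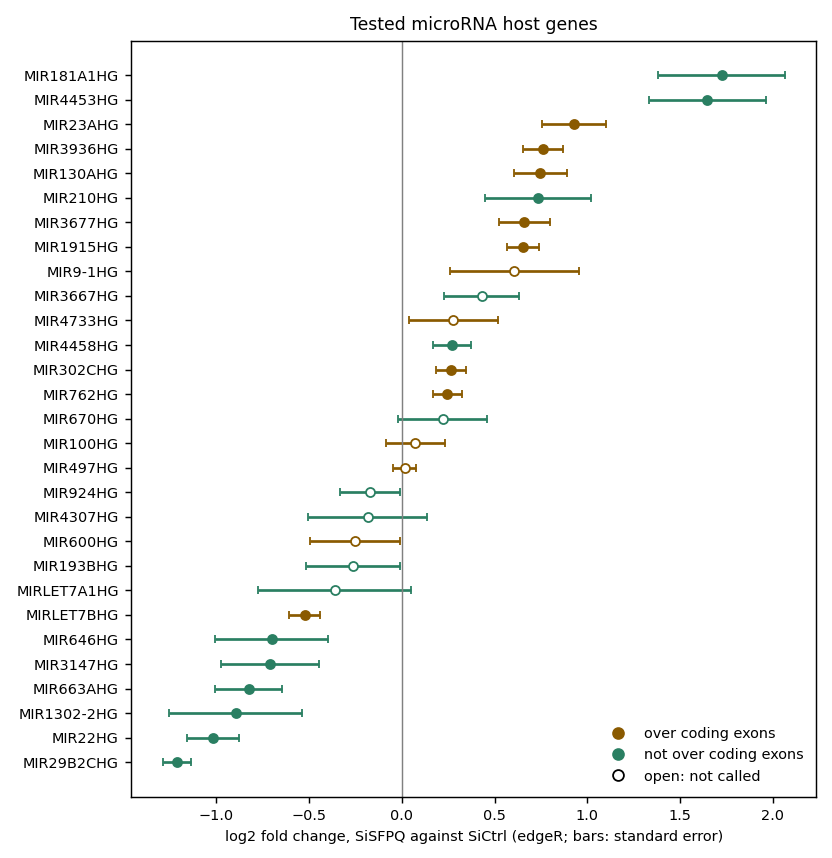
Log2 fold change of SiSFPQ against SiCtrl (horizontal axis; bars are the standard error of the edgeR fit) for the 29 tested hosts, brown where GENCODE 29 exons of the host overlap coding exons and green where they do not; open points were not called. For MIR1915HG and MIR9-1HG the coding exons may be those of the host's own record. The lowest is MIR29B2CHG at -1.21 and the highest MIR181A1HG at 1.73.

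The clearest fall was at the host of miR-29b-2 and miR-29c. MIR29B2CHG (ENSG00000203709, chromosome 1, 207760650 to 207879104, minus strand) had 568, 583 and 526 counts in the SiCtrl libraries and 215, 273 and 278 in the SiSFPQ libraries. Every SiSFPQ library was far below every SiCtrl library. Its level went from 398 ± 6.21 to 171 ± 7.85 CPM (SD, n = 3 each; CPM, counts scaled to the table's library size after TMM scaling), a log2 fold change of -1.21 ± 0.08 (SE; edgeR, adjusted p = 8.0e-58). Both hairpins lie in exons of the GENCODE 29 gene, and no coding exon overlaps it.

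MIR22HG carries miR-22, also in an exon, and is known to be induced by several kinds of stress (ENSG00000186594, chromosome 17, 1711447 to 1717174, minus strand). Its counts were 122, 128 and 97 in SiCtrl and 65, 59 and 57 in SiSFPQ, with no overlap between the groups. The level went from 82.2 ± 8.34 to 41.1 ± 7.41 CPM (SD, n = 3), a log2 fold change of -1.02 ± 0.14 (SE; edgeR, adjusted p = 1.1e-12). No other gene of the table overlaps it.

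MIRLET7BHG, host of let-7a-3 and let-7b in its exons (ENSG00000197182, chromosome 22, 46044913 to 46116297, plus strand), fell less. It had 321, 365 and 314 counts in SiCtrl and 204, 279 and 254 in SiSFPQ. The level was 237 ± 9.69 CPM in SiCtrl and 165 ± 9.01 CPM in SiSFPQ (SD, n = 3), a log2 fold change of -0.52 ± 0.08 (SE; edgeR, adjusted p = 1.4e-09). The groups did not overlap. PRR34, which lies on the opposite strand within it and shares 52 bases of exon, moved the same way, from 81.2 ± 11.1 to 55.0 ± 5.41 CPM (log2 fold change -0.56 ± 0.13, edgeR, adjusted p = 5.6e-05). The part of shared reads in the fall was not tested.

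Of the other 6 hosts of the let-7 seed, 3 were tested, and their difference from MIRLET7BHG was not. MIR4458HG, with miR-4458 in an exon, had 133, 153 and 148 counts in SiCtrl and 167, 207 and 181 in SiSFPQ, where it was higher by 0.27 ± 0.10 on the log2 scale (edgeR, adjusted p = 0.019). That call was lost with DESeq2 (adjusted p = 0.20), with no low-count filter (0.069) and without SiCtrl replicate 1 (0.13), SiCtrl replicate 2 (0.055) or SiSFPQ replicate 2 (0.078). MIR100HG, which carries let-7a-2, miR-100 and miR-125b-1 in introns, was not called. Its counts were 48, 79 and 49 in SiCtrl and 57, 69 and 70 in SiSFPQ, and the 95% interval of its log2 fold change ran from -0.24 to 0.39. MIRLET7A1HG, at 5 to 13 counts per library in both groups, was not called either (log2 fold change -0.36 ± 0.41, edgeR, adjusted p = 0.48). The 95% interval of its log2 fold change, -1.17 to 0.45, holds the value of MIRLET7BHG. MIRLET7IHG had 10, 12 and 9 counts in SiCtrl and 6, 9 and 7 in SiSFPQ, too few to test. In CPM it was lower in every SiSFPQ library, with means of 7.34 and 4.90 CPM. MIR99AHG and MIR4500HG also had too few counts to test.

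Of the hosts of microRNAs tied to growth and low oxygen, MIR23AHG and MIR210HG rose, while MIR22HG, described above, fell. MIR23AHG is named for miR-23a, which RefSeq places outside the listed span. It had 32, 40 and 44 counts in SiCtrl and 50, 77 and 108 in SiSFPQ. All SiSFPQ counts lay above all SiCtrl counts, and the level was 27.6 ± 5.06 CPM in SiCtrl and 52.0 ± 16.2 CPM in SiSFPQ (SD, n = 3). The log2 fold change was 0.93 ± 0.17 (SE; edgeR, adjusted p = 2.6e-07). Its exons overlap 2286 bases of the coding gene ZSWIM4 on the opposite strand, and its listed exonic length of 19049 exceeds its span of 12409 bases. MIR210HG hosts miR-210, the microRNA best known for its induction by low oxygen. It had 11, 14 and 18 counts in SiCtrl and 30, 23 and 23 in SiSFPQ (log2 fold change 0.73 ± 0.29, edgeR, adjusted p = 0.020), and the groups did not overlap. The MIR210HG call was lost with DESeq2 (adjusted p = 0.22), with no filter (0.069) and without SiCtrl replicate 1 (0.12), SiCtrl replicate 2 (0.078) or SiSFPQ replicate 1 (0.18).

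Hosts of 4 much-studied cancer microRNAs in that group could not be tested. MIR17HG, the primary transcript of the miR-17-92 cluster, had 7, 7 and 3 counts in SiCtrl and 2, 5 and 6 in SiSFPQ. MIR222HG had 0, 9 and 5 against 3, 6 and 8, and MIR155HG had 3, 7 and 2 against 1, 4 and 1. MIR31HG had 0, 1 and 2 counts against 3, 3 and 0. The counts of the groups overlapped for each of these 4, and no difference was tested.

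MIR181A1HG showed the largest rise. This host of miR-181a-1 and miR-181b-1, both in introns (ENSG00000229989, chromosome 1, 198739203 to 198937429, minus strand), had 6, 10 and 8 counts in SiCtrl and 29, 34 and 22 in SiSFPQ. The level went from 5.69 ± 1.28 to 19.2 ± 4.32 CPM (SD, n = 3), a log2 fold change of 1.73 ± 0.34 (SE; edgeR, adjusted p = 2.0e-07). No coding exon overlaps it. The second host of the same seed, MIR181A2HG on chromosome 9, had 6, 9 and 8 counts in SiCtrl and 9, 4 and 6 in SiSFPQ, too few to test. Of the hosts of the miR-15 seed and of miR-193, neither tested one was called. MIR497HG, which carries miR-195 and miR-497 in exons and had the most counts of all 82, held 632, 658 and 576 counts in SiCtrl and 583, 726 and 691 in SiSFPQ. Its log2 fold change was 0.02 (edgeR, adjusted p = 0.85), with a 95% interval of -0.11 to 0.14. Its exons share 1466 bases with C17orf49 and 618 with RNASEK-C17orf49, coding genes on the opposite strand. MIR193BHG, with miR-193b and miR-365a in introns, had 30, 26 and 20 counts against 16, 21 and 30 (log2 fold change -0.26 ± 0.25, edgeR, adjusted p = 0.40).

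**Figure D3:**
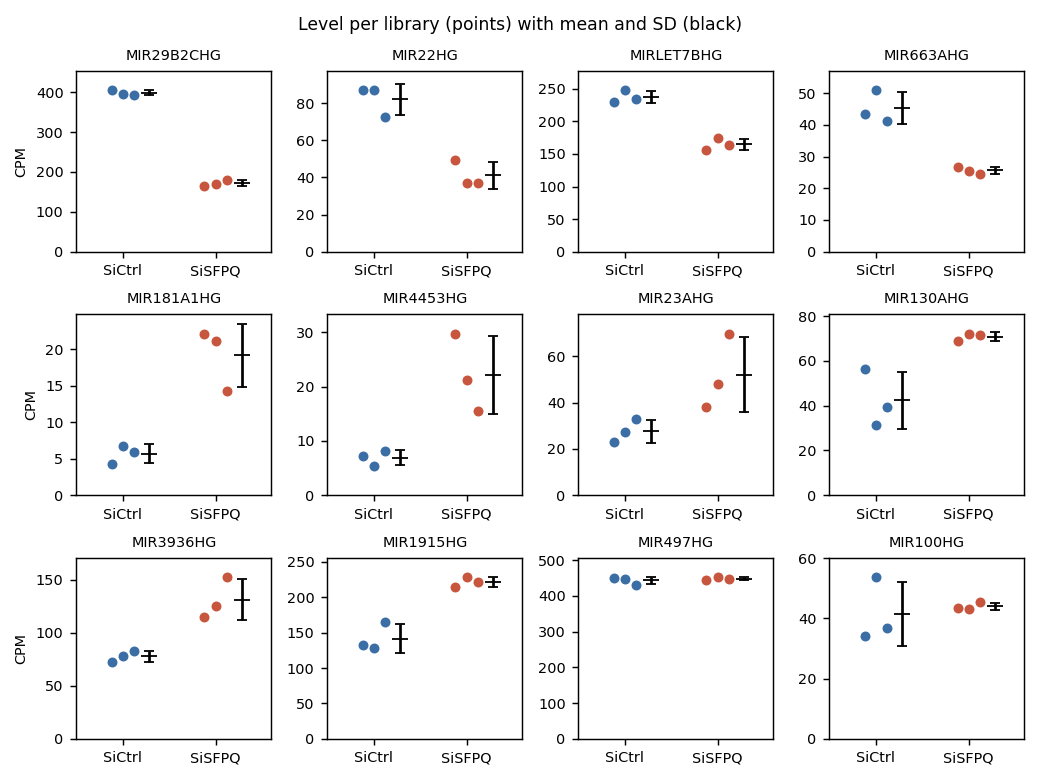
CPM in each library (points, vertical axes from 0) with the mean and SD of the 3 libraries of each group (black) for 12 hosts. MIR29B2CHG, MIR22HG, MIRLET7BHG and MIR663AHG are lower in every SiSFPQ library, MIR181A1HG to MIR1915HG are higher in every one, and MIR497HG and MIR100HG overlap.

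MIR4453HG is listed as a single unbroken exon (ENSG00000268471, chromosome 4, 152536260 to 152539263, plus strand) with miR-4453 in its exon. It had 10, 8 and 11 counts in SiCtrl and 39, 34 and 24 in SiSFPQ, and its mean went from 6.93 ± 1.41 CPM to 22.2 ± 7.18 CPM (SD, n = 3). The log2 fold change was 1.65 ± 0.32 (SE; edgeR, adjusted p = 9.3e-08). The lowest SiSFPQ library was still above every SiCtrl library, and no other gene of the table overlaps it. MIR663AHG, near the centromere of chromosome 20, fell from 61, 75 and 55 counts to 35, 41 and 38 (log2 fold change -0.83 ± 0.18, edgeR, adjusted p = 1.9e-05). ENSG00000238129, on the opposite strand across 29076 bases of the same span, was also lower (log2 fold change -0.49 ± 0.11, edgeR, adjusted p = 7.7e-05). The part of shared reads in these falls was not tested.

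A further 6 hosts that rose were listed as overlapping coding exons. For MIR1915HG the listed overlap is 3801 exonic bases of CASC10 on its own strand. CASC10 may be the host's own coding record and not a separate gene. MIR1915HG had 185, 188 and 220 counts in SiCtrl and 281, 367 and 343 in SiSFPQ (log2 fold change 0.65 ± 0.09, edgeR, adjusted p = 3.5e-13). ENSG00000308071, opposite to it over 1262 bases of span, rose by 0.66 ± 0.14. The part of reads shared between MIR1915HG and ENSG00000308071 was not tested. MIR3936HG, at the carnitine transporter gene SLC22A5 and its neighbour SLC22A4, had 101, 115 and 111 counts against 151, 201 and 236 (0.76 ± 0.11, edgeR, adjusted p = 1.6e-11). For both hosts, every SiSFPQ library was above every SiCtrl library.

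MIR130AHG, host of miR-130a, had 79, 46 and 53 counts in SiCtrl and 90, 116 and 111 in SiSFPQ (log2 fold change 0.75 ± 0.14, edgeR, adjusted p = 6.4e-07). It shares 197 bases with YPEL4 and 41 with CLP1, an RNA kinase gene. MIR3677HG, which shares 111 bases with the splicing-related gene RNPS1, had 67, 75 and 57 counts against 84, 138 and 112 (0.66 ± 0.14, edgeR, adjusted p = 5.3e-06). MIR302CHG hosts the miR-302 cluster of pluripotent stem cells, in introns and at an exon edge, and shares 302 bases with LARP7, whose protein binds the 7SK RNA. It had 263, 264 and 233 counts against 293, 355 and 319 (0.26 ± 0.08, edgeR, adjusted p = 0.0038). MIR762HG, over 499 bases of the chromatin-remodelling gene BCL7C, had 283, 317 and 284 against 331, 413 and 367 (0.25 ± 0.08, edgeR, adjusted p = 0.0044). In CPM the groups did not overlap for these 4 hosts. With DESeq2 the calls for MIR302CHG (adjusted p = 0.076) and MIR762HG (0.078) were lost.

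The last 3 called hosts fell on low counts, without overlap in CPM, and each call was lost when certain single libraries were left out. MIR3147HG had 39, 22 and 21 counts in SiCtrl and 17, 15 and 21 in SiSFPQ (log2 fold change -0.71 ± 0.26, edgeR, adjusted p = 0.016). Without SiCtrl replicate 1 its log2 fold change was -0.37 (adjusted p = 0.34), and without SiSFPQ replicate 2 it was not called (0.12); DESeq2 gave 0.22. MIR1302-2HG, one of several near-identical copies at chromosome ends, had 17, 19 and 10 against 7, 8 and 11 (-0.90 ± 0.36, edgeR, adjusted p = 0.024). Reads may be split between such copies, so its value is uncertain. MIR1302-9HG, another copy, had 9, 10 and 9 counts against 10, 7 and 10, too few to test. WASH7P, opposite to MIR1302-2HG over 2155 bases, also fell (log2 fold change -0.44 ± 0.06, edgeR, adjusted p = 5.5e-11). WASH7P had 3747 counts over all libraries and MIR1302-2HG 72, and the part of reads shared between them was not tested. MIR646HG had 17, 19 and 24 counts against 11, 12 and 16 (-0.70 ± 0.30, edgeR, adjusted p = 0.041). The MIR1302-2HG call was lost with no filter (0.079), with DESeq2 (0.25) and without SiCtrl replicate 1 (0.093), SiCtrl replicate 2 (0.12), SiSFPQ replicate 1 (0.064) or SiSFPQ replicate 2 (0.096). The MIR646HG call was lost with plain library totals (0.066), no filter (0.12), the stricter filter (0.064) and DESeq2 (0.29), and without SiCtrl replicate 3 (0.20), SiSFPQ replicate 1 (0.084) or SiSFPQ replicate 2 (0.15).

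**Figure D4:**
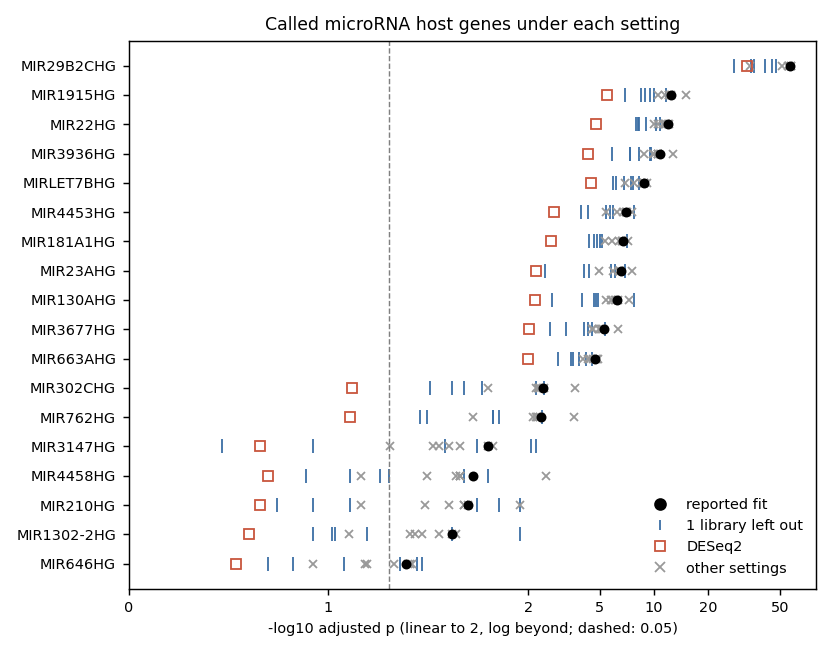
Size of -log10 adjusted p (horizontal axis, linear to 2 and log beyond; the dashed line is 0.05) for the 18 called hosts under the reported fit (black), with 1 library left out (blue), with DESeq2 (red squares) and under the other settings (grey). The upper 11 hosts stay to the right of the line under all settings, and the 7 below MIR663AHG cross it under at least 1.

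The other 8 hosts not called were MIR3667HG, MIR9-1HG, MIR4733HG, MIR924HG, MIR600HG, MIR670HG, MIR4307HG and MIRLET7A1HG, with log2 fold changes from -0.36 to 0.61. MIR3667HG, at 33, 37 and 28 counts in SiCtrl and 48, 42 and 50 in SiSFPQ, did not overlap between groups in CPM (log2 fold change 0.43 ± 0.20, edgeR, adjusted p = 0.061). It was called with plain library totals (0.029) and without SiSFPQ replicate 2 (0.029). MIR4733HG, antisense to 143 exonic bases of NF1, was called only without SiSFPQ replicate 3, among the 14 alternatives run for it (0.041). MIR670HG was not called (log2 fold change 0.22 ± 0.24), while ENSG00000283341, on the same strand across 94355 bases of its span, fell from 207 ± 5.10 to 155 ± 9.14 CPM (log2 fold change -0.41 ± 0.09, edgeR, adjusted p = 5.9e-06). MIR4307HG lies wholly within NOVA1-DT and was not called (-0.18 ± 0.32), while NOVA1-DT fell (log2 fold change -0.71 ± 0.29, edgeR, adjusted p = 0.028). Of the hosts listed for microRNAs of nerve and muscle, MIR9-1HG alone was tested, with 9, 14 and 6 counts against 17, 17 and 13 (0.61 ± 0.35, edgeR, adjusted p = 0.13). MIR9-2HG and MIR9-3HG, which carry the same mature miR-9, had 2 to 5 and 3 to 10 counts per library. MIR205HG, named for an epithelial microRNA, had 0, 5 and 1 counts in SiCtrl and 0 in each SiSFPQ library.

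The tested hosts were then described by features that their symbols do not fix. Exons of 13 were listed as overlapping coding exons, and of these 7 were higher, 1 lower and 5 not called. The other 16, without such overlap, had 4 higher, 6 lower and 6 not called. The called were 61.5% of the first set and 62.5% of the second, beside 48.4% of all tested genes (24.5% higher, 24.0% lower). The median log2 fold change was 0.28 in the first set and -0.22 in the second. The difference between the sets was not tested. Whether counting used strand is not stated, and MALAT1 and its antisense partner TALAM1 held nearly equal totals, 72563 and 72552 counts. Counts of the 13 can hold reads of the coding gene, except where that gene is the host itself. The part of those reads in their changes was not tested.

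By the place of the microRNA in GENCODE 29, 8 tested hosts had at least 1 in an exon (3 higher, 3 lower, 2 not called). Another 15 had at least 1 in an intron and none wholly in an exon (7 higher, 2 lower, 6 not called). The remaining 6 had none placed in either (1 higher, 2 lower, 3 not called). Of the 47 RefSeq microRNA genes in 26 tested hosts, 12 lay in exons, 27 in introns and 8 at an exon edge or outside that release's gene. The 9 hosts spanning over 100 kb had 1 higher, 2 lower and 6 not called, and the 20 shorter ones had 10 higher, 5 lower and 5 not called. By place, the called were 75% of the 8 hosts, 60% of the 15 and 50% of the 6. By span they were 33.3% of the 9 and 75% of the 20, beside 48.4% of all tested genes. These counts and shares are descriptions, and no difference between them was tested.

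Levels can be compared between genes only per length. The listed exonic length exceeds the span for 5 of the 82 hosts, 1 of them tested (MIR23AHG), so levels per kb are approximate. Per kb of listed exonic length, MIR762HG stood highest in SiCtrl at 95.2 ± 3.20 CPM per kb (SD, n = 3), and MIR302CHG (49.9 ± 1.87) and MIR1915HG (32.6 ± 4.65) followed. MIR497HG (27.4 ± 0.657) was the fourth. These 4 hosts were all listed as overlapping coding exons, though for MIR1915HG these may be its own. MIR29B2CHG (24.5 ± 0.383), MIR22HG (21.5 ± 2.18) and MIRLET7BHG (19.2 ± 0.783) came next. The spreads of MIR29B2CHG and MIR22HG did not meet, whereas those of MIR22HG and MIRLET7BHG did. In SiSFPQ, MIR29B2CHG (10.6 ± 0.484) and MIR22HG (10.7 ± 1.94) were below MIRLET7BHG (13.3 ± 0.728) by mean. MIR181A1HG, the largest rise, was among the lowest levels in both groups, at 0.393 ± 0.0887 and 1.33 ± 0.299 CPM per kb.

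**Figure D5:**
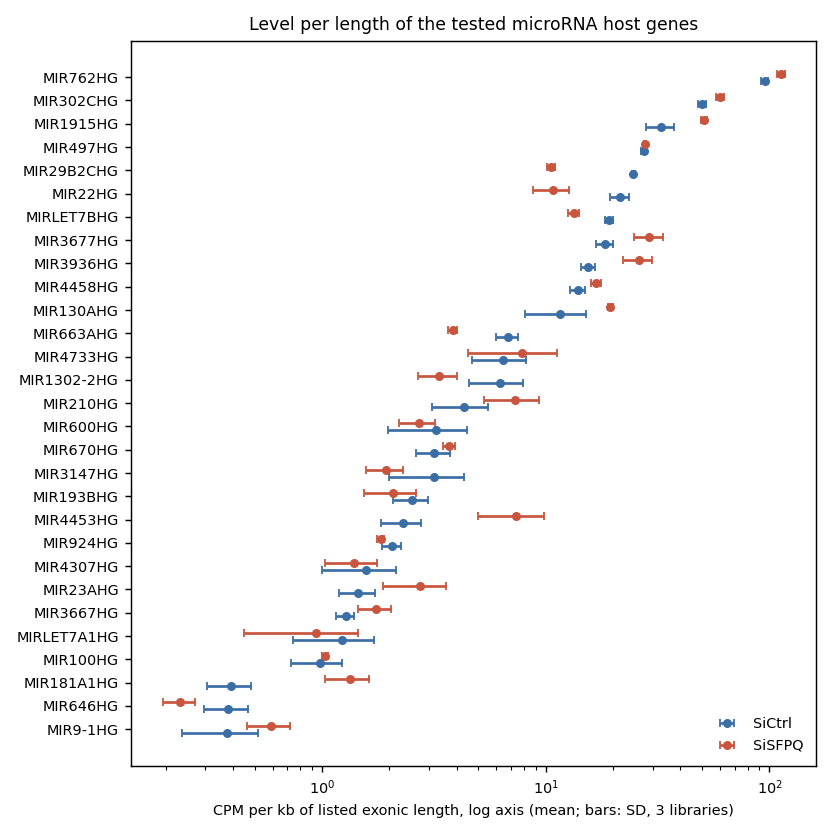
Level of the 29 tested hosts per kb of listed exonic length (horizontal log axis; points are means and bars SDs of 3 libraries, blue SiCtrl and red SiSFPQ), in order of the SiCtrl level. MIR762HG is highest at 95.2 CPM per kb in SiCtrl, and MIR9-1HG lowest at 0.377.

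Other non-coding genes carry microRNAs under another kind of name. Of 12 such genes listed for comparison, 11 were found in the table under those symbols and 7 were tested: 1 was higher, 3 lower and 3 not called. The 4 called are 57.1% of those tested, beside 48.4% of all tested genes. The higher one was PVT1 (log2 fold change 0.25 ± 0.05, edgeR, adjusted p = 6.2e-07). H19, the imprinted host of miR-675, was at 156, 132 and 160 CPM in SiCtrl and 46.6, 51.7 and 31.0 CPM in SiSFPQ (log2 fold change -1.79 ± 0.13, edgeR, adjusted p = 1.4e-49). LINC00472, whose span holds miR-30a and miR-30c-2, had 318, 313 and 277 counts in SiCtrl and 112, 163 and 133 counts in SiSFPQ (-1.24 ± 0.10, edgeR, adjusted p = 8.8e-38). Both lay below every SiCtrl library in every SiSFPQ library.

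Seeds linked 2 of these genes to the hosts above. DLEU2, the host of miR-15a and miR-16-1, which share the seed AGCAGCA with the microRNAs of MIR497HG, was at 125 ± 13.7 CPM in SiCtrl and 88.6 ± 6.13 CPM in SiSFPQ (SD, n = 3), a log2 fold change of -0.50 ± 0.11 (SE; edgeR, adjusted p = 1.0e-05). MIR497HG was not called. LINC-PINT, whose span holds miR-29a and miR-29b-1 with the seed of MIR29B2CHG, was not called, at 97.1 ± 1.95 and 93.1 ± 3.05 CPM, with a 95% interval of -0.27 to 0.15 for its log2 fold change, while MIR29B2CHG fell. FTX and DNM3OS were also not called. The differences within each pair were not tested.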

How the data were processed

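The deposited file holds raw read counts per gene, whole numbers without normalisation, per the file headers, with listed positions and exonic lengths. Libraries were stranded and poly(A)-selected, per the labels' protocols. The sources used here name no aligner, counting program, annotation or build. No column of another sample was present. The test was the two-sided robust quasi-likelihood test of edgeR 4.0.16 (R 4.3.3) with group as sole term, after filterByExpr (6325 genes kept) and TMM scaling. CPM is relative to the table's own TMM-scaled totals. Standard errors come from the fitted weights and the moderated dispersion. Alternatives used limma 3.58.1 and DESeq2 1.42.0, and the fit was tested on simulated data. The members and lists were chosen with earlier results of these data known. All tested members are named, with values per library for those called and for a fixed list of well-known hosts. Overlaps used GENCODE 29 exons, or the listed span where the identifier was missing. A host's own coding record was not left out of them. No replicate pair was a duplicate (chi-square per degree of freedom 1.19 to 1.33). No set test was run.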

Additional observations from a re-analysis of the deposited data

How the results depend on the processing

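Alternatives were RLE, upper-quartile and plain scaling, no filter, a stricter filter, limma-voom, DESeq2, blocking by replicate number, and fits without 1 library. Over all genes, DESeq2 called 858 higher and 904 lower, and plain library totals gave 1762 higher and 1304 lower. Among the hosts, DESeq2 called 7 higher and 4 lower; the cause was not tested. A log2 fold change of at least 1 left 2 higher and 2 lower. A fit of genes without coding exon overlap tested 16 hosts, with 4 higher and 6 lower and a median log2 fold change of -0.23. Leaving out 1 library gave 9 to 12 hosts higher and 4 to 7 lower. No pairing by number was seen: same-numbered deviations correlated at -0.0047, 0.0010 and 0.010, and the replicate block gave 11 hosts higher and 7 lower. Of 252 values of the 18 called hosts, 224 kept direction and call, 28 lost the call and 0 reversed, and 11 of the 18 hosts kept it throughout. Of 154 values of the 11 others, 3 gained a call. Scaling moved the median of all genes from 0.0004 to 0.072. Low counts limit hosts such as MIR646HG.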

Other observations

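Beyond the named hosts, 87 tested genes of the table hold a RefSeq microRNA within their span on the same strand, DLEU2, H19 and LINC00472 among them. Of these, 20 were higher and 29 lower in SiSFPQ (56.3% called by edgeR, beside 48.4% of all tested genes, of which 24.5% were higher and 24.0% lower), and their median log2 fold change was -0.06. They were gathered by position after the data were examined. Some hold the same microRNA, as DANCR and ENSG00000293643 do for miR-4449, so the 87 are not all separate places in the genome. Their overlap with coding exons is not given here, and the part of shared reads in their changes was not tested. C10orf95-AS1, whose span holds miR-146b, went from 80.9 ± 6.16 to 167 ± 8.65 CPM (SD, n = 3). THBS3-AS1, with miR-92b, went from 406 to 303 CPM on average, and LINC00648, with miR-548y, from 128 to 57.2 CPM. These 3 were chosen after their values were seen. A hairpin within a span is no sign that it is processed from that RNA.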
